A study of Homo sapiens with 8 samples.

Results

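The genes described here encode Wnt ligands, their receptors and inhibitors, the proteins that carry the signal to the nucleus, and target genes of beta-catenin. They are the genes whose single array annotation symbol begins with WNT or FZD followed by a number and at most 1 letter, plus 19 named pathway genes, 48 in all. A probe set carrying a single symbol was found for 47 of them among the 18404 genes tested: all 19 WNT genes, all 10 FZD genes and 18 of the 19 others. TCF7 was not analysed here. The rule goes by gene names and applies no threshold to measured values.

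Wnt proteins are secreted, lipid-modified ligands that bridge a Frizzled receptor and the co-receptor LRP5 or LRP6. Receptor engagement disables the destruction complex, built on the scaffolds AXIN1 or AXIN2 together with APC and GSK3, so that beta-catenin accumulates and activates genes with the TCF/LEF factors. Several activated genes encode inhibitors of the same pathway. In liver, beta-catenin sets the gene programme of hepatocytes near the central vein and drives a large class of liver tumours. HepG2, the human liver tumour line used here, is known to carry a CTNNB1 deletion that removes the part of beta-catenin marked for destruction, which limits it as a model of ligand-driven signalling.

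Expression was measured on 8 single-channel whole-transcript arrays of HepG2. In the H2O2 group, 4 cultures were exposed for 60 minutes to 0.5 mM hydrogen peroxide to bring on senescence, and in the untreated group 4 cultures received culture medium alone. All were washed and then kept for 5 days before their phenotype was examined, and the time of RNA extraction is not stated separately. The series' design text describes 4 biological replicates per condition, and this number limits the precision of every value.

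Values are log2 expression per probe set, and differences are H2O2 minus untreated with a standard error (SE). A gene was called when its Benjamini-Hochberg adjusted p over all genes, from limma, was under 0.05. The arrays' medians lay between 6.85 and 6.93. CDKN1A, the arrest gene p21, rose by 2.36 ± 0.067, and LMNB1, the lamin lost in senescence, fell by 1.07 ± 0.10. Of 15 proliferation genes, 14 fell and 0 rose, with a median difference of -1.17. The proliferation marker MKI67 fell by 1.32 ± 0.10. Hepatocyte markers lay above the overall median of 6.89 in 10 of 10 measured cases, of which 6 fell and 1 rose, and HNF4A was not analysed here. Their summed level went from 15.64 to 15.69 in untreated arrays and from 15.31 to 15.50 in H2O2 arrays. For stellate cells and fibroblasts 4 of 9 markers exceeded that median, and their summed level ranged from 10.94 to 11.06 against 11.82 to 12.02. For macrophages and leukocytes 2 of 8 did so, with sums of 10.31 to 10.35 against 10.75 to 10.95, and for cholangiocytes 4 of 6, with sums of 13.05 to 13.11 against 13.36 to 13.50. For endothelial cells 1 of 8 did so, with sums of 9.13 to 9.26 against 9.10 to 9.26. A sum on the linear scale follows its highest genes. The median marker difference was -0.049 for stellate cells and fibroblasts, -0.10 for macrophages and leukocytes, -0.033 for cholangiocytes and -0.051 for endothelial cells. Among the stellate cell and fibroblast markers 2 rose, ACTA2 from a mean of 10.05 to 11.55 and COL1A1 by 0.41, and 1 fell, PDGFRB by 1.15. Among the macrophage and leukocyte markers 2 rose, CD68 by 0.80 and CD14 by 0.27, and 0 fell. Among the cholangiocyte markers 1 rose, KRT19 by 1.81, and 0 fell, and among the endothelial markers 0 rose and 1 fell, CDH5 by 0.25. Some other markers of these lists were below the overall median and not called. Among them PTPRC of leukocytes was at 4.23 and 4.09 in untreated and treated cells. DCN of fibroblasts was at 4.30 and 4.23, and LUM, also of fibroblasts, at 4.05 and 3.94. They are examples and do not stand for their lists, whose called markers are given above. The part of any of these shifts in the Wnt pathway results was not tested. All samples are cultures of the HepG2 line, so these sums describe transcript levels in that culture and do not count cell types. Bulk RNA does not show whether a shift was shared by all cells or came from some of them.

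In H2O2-treated cells, 8 Wnt pathway genes rose and 7 fell, and 32 were not called. Those that rose were the pathway inhibitors RNF43, DKK4, AXIN2, DKK1 and NKD1, the transcription factors TBX3 and LEF1 and the ligand WNT7B. Those that fell were the receptor FZD4, the co-receptors LRP6 and LRP5, the pathway inhibitor AXIN1, the transcription factor TCF7L2 and the ligands WNT3 and WNT8B. The share called, 31.9% of 47 genes, was close to the 34% of all 18404 genes that were called, and so was each direction, with 17.0% higher and 14.9% lower against 19.2% and 14.8% of all genes. The median difference was -0.019 over the Wnt pathway genes and -0.022 over all genes. A difference of at least 0.5 on the log2 scale was called for 9 of the 47, or 19.1%, against 12% of all genes. The H2O2 and untreated values did not overlap for 18 of the 47, or 38.3%, against 33.7% of all genes.

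**Figure D1:**
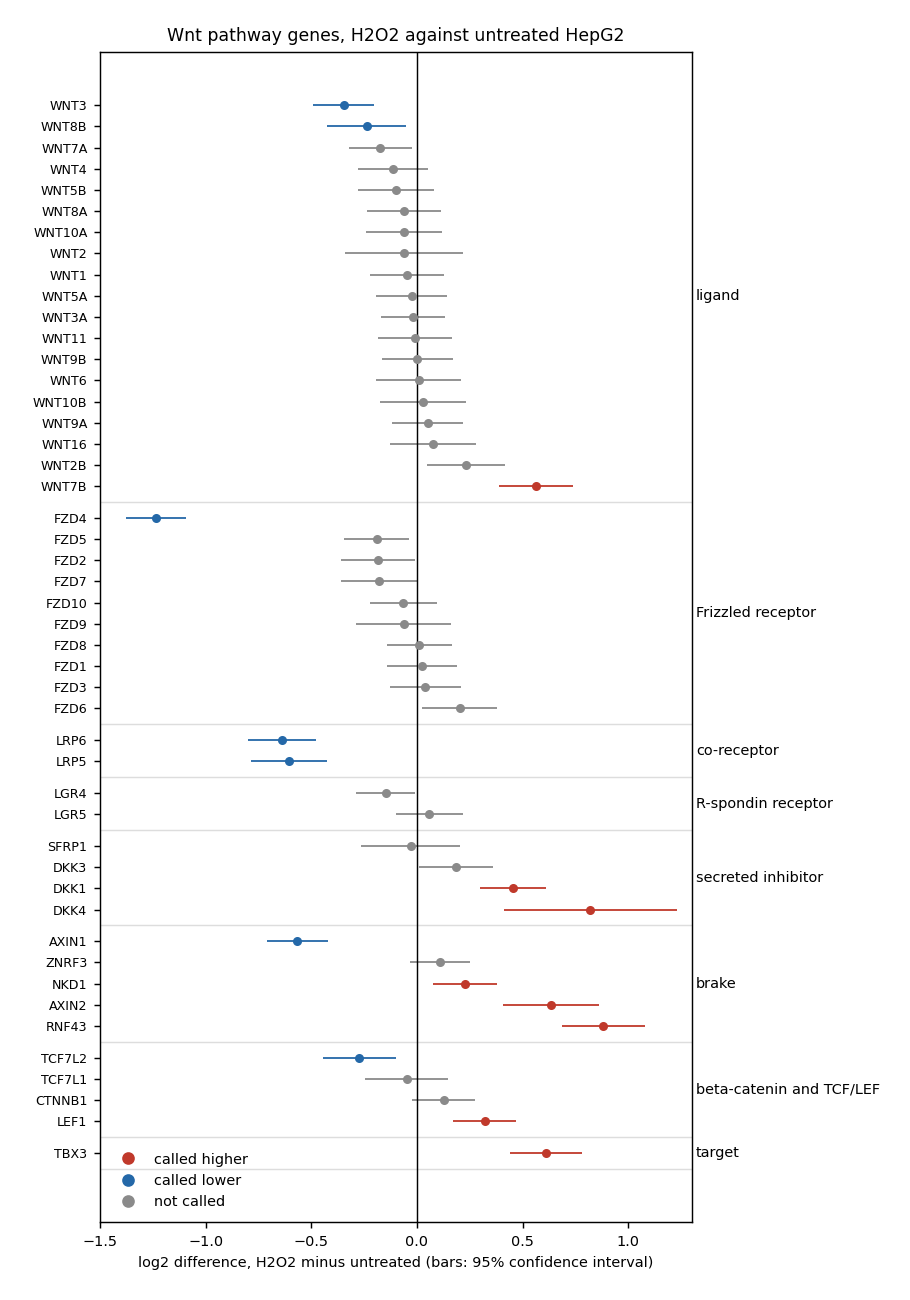
Log2 difference, H2O2 minus untreated, of the 47 measured Wnt pathway genes, grouped by role on the vertical axis; points are limma estimates from 4 arrays per group and bars their 95% confidence intervals. FZD4 lies farthest to the left at -1.24 and RNF43 farthest to the right at 0.88, and most ligands and Frizzled receptors lie near 0.

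Few ligands were called. Of 19 WNT genes 1 rose, 2 fell and 16 were not called, where 34% of all genes were called. Their median difference was -0.024. In both groups 7 of the 19 had a mean below the overall median of 6.89, a level not shown to be above background, which limits how exactly their differences are known. Without a detection call the other ligands, with means up to 7.90, are not shown to be above background either. WNT7B, a ligand of epithelial development, read 6.57, 6.89, 6.64 and 6.84 in untreated replicates 1 to 4. It read 7.36, 7.33, 7.30 and 7.21 in H2O2 replicates 1 to 4. All 4 treated arrays lay above all untreated arrays, by 0.56 ± 0.081 on average or 1.48-fold (limma adjusted p = 8.85e-05). The untreated mean of WNT7B, 6.74, was below the overall median, which limits how exactly the fold is known.

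WNT3, a ligand of the beta-catenin branch, read 7.90, 7.91, 7.86 and 7.93 without treatment and 7.48, 7.58, 7.66 and 7.48 with it. Its 4 untreated arrays were tightly grouped and all above the treated ones, and it fell by 0.35 ± 0.066 (adjusted p = 0.000901 by limma). WNT8B, another Wnt ligand, read 5.96, 5.81, 5.86 and 5.60 against 5.58, 5.41, 5.63 and 5.66. Its groups overlapped, both means were below the overall median, and its call was marginal (-0.24 ± 0.087, limma adjusted p = 0.0495). It was kept in 2 of 8 fits that left out an array, where the difference ranged from -0.31 to -0.18. WNT8B was the only called Wnt pathway gene whose groups overlapped.

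The other 16 WNT genes differed by -0.17 to 0.23. WNT2B, a ligand of the beta-catenin branch, came closest to a call, at 0.23 ± 0.086 (adjusted p = 0.0526, limma). WNT7A, the close relative of WNT7B, gave -0.17 ± 0.070 (limma adjusted p = 0.0752), opposite in sign to WNT7B. WNT3A, the ligand most used to activate beta-catenin in culture, gave -0.019, with a 95% confidence interval from -0.17 to 0.13. WNT5A, the prototype ligand of beta-catenin-independent signalling, gave -0.024, with an interval from -0.19 to 0.14. The sign of WNT3A and of WNT5A changed with the array left out, and that of WNT5A under quantile normalization as well.

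Among the 10 Frizzled receptors, which bind Wnt proteins at the cell surface, 1 fell and 9 were not called. Of all genes 34% were called. FZD4, also the receptor of the non-Wnt ligand Norrin, read 9.56, 9.48, 9.60 and 9.45 in untreated cells. It read 8.25, 8.37, 8.28 and 8.24 in treated cells. The gap between the groups far exceeded the spread within them (SD 0.070 untreated, 0.057 treated, n = 4 each), and FZD4 was 2.36-fold lower, the largest difference of the 47 genes (-1.24 ± 0.066, limma adjusted p = 7.93e-09).

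The other 9 Frizzled genes differed by -0.19 to 0.20. FZD5 read 9.83, 9.80, 10.02 and 9.99 against 9.69, 9.68, 9.79 and 9.71. Its groups did not overlap, but it missed the threshold in the fit of all genes (-0.19 ± 0.072, limma adjusted p = 0.0551). It passed in 2 of 6 other settings and in 2 of 8 fits without an array. FZD6, a receptor known from planar polarity, read 8.63, 8.61, 8.68 and 8.71 against 9.04, 8.83, 8.65 and 8.92. The groups overlapped through H2O2 replicate 3, and without that array FZD6 passed at 0.27. FZD2 gave -0.18 and FZD7 -0.18, neither of them called, with adjusted p = 0.105 and adjusted p = 0.129 from limma. Leaving out untreated replicate 3 or H2O2 replicate 3 made FZD2 pass, at -0.24 in both cases.

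Both co-receptors fell. LRP6, which is phosphorylated on its tail when Wnt binds and then recruits axin, read 9.78, 9.71, 9.99 and 9.73 in untreated replicates. In treated replicates it read 9.11, 9.19, 9.19 and 9.17, a fall of 0.64 ± 0.074 or 1.56-fold (limma adjusted p = 1.34e-05). LRP5, its paralog, read 9.72, 9.63, 10.01 and 9.76 against 9.14, 9.13, 9.27 and 9.15, a fall of 0.61 ± 0.083 or 1.52-fold (limma adjusted p = 5.99e-05). In both genes the groups were fully separated, and untreated replicate 3 gave the highest value. Without that array LRP6 differed by -0.58 and LRP5 by -0.53, and both were still called.

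Neither R-spondin receptor was called. LGR5 and LGR4 bind R-spondins, which raise Wnt responses by removing the ligases RNF43 and ZNRF3 from the membrane, and LGR5 is also a beta-catenin target. LGR5 read 11.36, 11.40, 11.58 and 11.61 against 11.59, 11.57, 11.47 and 11.55. Its groups overlapped, and the difference of 0.059 had a 95% confidence interval from -0.10 to 0.22. LGR4 read 10.02, 9.99, 10.12 and 9.94 against 9.85, 9.88, 9.84 and 9.91, without overlap, at -0.15 ± 0.064 (adjusted p = 0.0964 from limma).

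**Figure D2:**
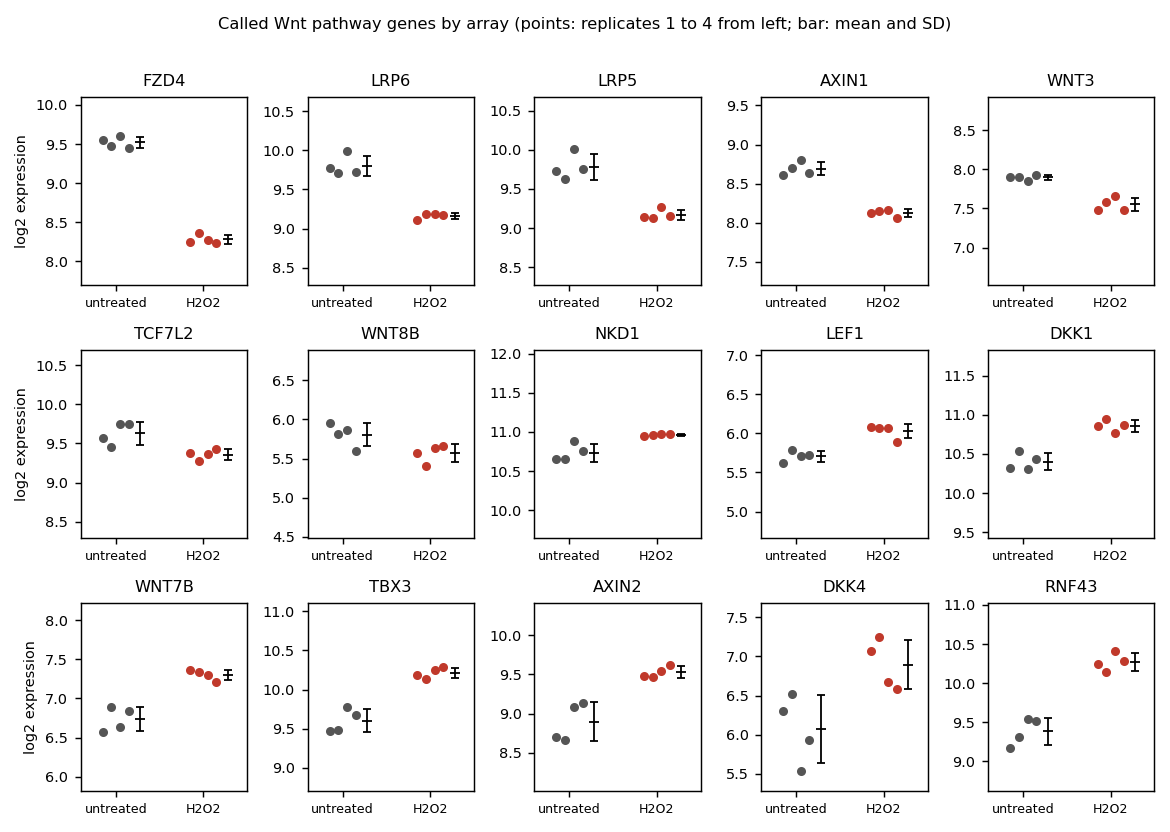
Log2 expression in each array for the 15 called Wnt pathway genes, ordered from the largest fall to the largest rise; points are replicates 1 to 4 of each group from left to right, the bar is the mean with its SD, and every panel spans the same range. Treated and untreated points are separated in every panel except WNT8B, and DKK4 has the widest spread in both groups.

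Secreted inhibitors rose in 2 of 4 cases and fell in 0, where 19.2% of all genes rose and 14.8% fell. DKK1, which binds LRP5 and LRP6 and blocks their use by Wnt, read 10.32, 10.54, 10.31 and 10.43 in untreated cells. It read 10.85, 10.94, 10.76 and 10.87 in treated cells, all above the untreated arrays, a rise of 0.46 ± 0.073 or 1.37-fold (limma adjusted p = 0.000224). DKK4, a related LRP inhibitor and beta-catenin target, read 6.31, 6.52, 5.53 and 5.93 against 7.07, 7.25, 6.68 and 6.58. Its lowest treated array lay just above its highest untreated one, and its SE was the largest of the 47 genes (0.82 ± 0.19, 1.77-fold, limma adjusted p = 0.00383). Its untreated mean of 6.07 was below the overall median, which limits how exactly the fold is known.

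DKK3, a divergent member of the family, gave 0.18 ± 0.080 (limma adjusted p = 0.0969), and a second, dimmer probe set of the gene gave 0.074 ± 0.086. SFRP1, a decoy that binds Wnt proteins, gave -0.031, with a 95% confidence interval from -0.26 to 0.20, and its sign changed with the array left out.

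DKK1 is among the genes known to be activated by beta-catenin, and its promoter is shown because it was the only one, among 30 Wnt pathway genes with a RefSeq promoter sequence, to hold a TCF/LEF core motif. The motif was searched as CTTTGAT or CTTTGAA on the gene's strand and as ATCAAAG or TTCAAAG for the other strand, in the 250 bases before each start. CTTTGAT and ATCAAAG can share 2 bases, but the words marked here do not overlap. Of all 27305 genes with such a sequence 7.24% held at least 1 of them. The promoter of SP5, a transcription factor and beta-catenin target outside the 48 genes, is set beside it because it held 3 such words, and that of FZD4 because this gene fell most. Capitals mark the motifs, and positions are on GRCh38.p14 as RefSeq gives them: DKK1 on the plus strand at chr10:52314031-52314280, SP5 on the plus strand at chr2:170715087-170715336, FZD4 on the minus strand at chr11:86955396-86955645.
DKK1: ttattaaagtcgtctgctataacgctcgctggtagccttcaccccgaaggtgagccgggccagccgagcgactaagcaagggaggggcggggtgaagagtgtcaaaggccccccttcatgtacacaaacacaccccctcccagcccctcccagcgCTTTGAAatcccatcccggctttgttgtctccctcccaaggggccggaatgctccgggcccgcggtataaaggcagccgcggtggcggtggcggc
SP5: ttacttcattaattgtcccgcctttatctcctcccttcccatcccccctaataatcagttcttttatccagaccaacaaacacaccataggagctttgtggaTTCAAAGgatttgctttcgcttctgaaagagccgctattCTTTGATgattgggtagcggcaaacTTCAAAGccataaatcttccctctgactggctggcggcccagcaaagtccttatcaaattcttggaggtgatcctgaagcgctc
FZD4: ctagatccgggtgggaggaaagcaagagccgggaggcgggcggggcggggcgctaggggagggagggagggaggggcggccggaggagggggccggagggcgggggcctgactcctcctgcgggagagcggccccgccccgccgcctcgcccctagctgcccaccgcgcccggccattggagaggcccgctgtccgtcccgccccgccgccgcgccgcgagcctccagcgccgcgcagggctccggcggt

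The DKK1 motif begins 95 bases before the start. Whereas DKK1 rose, SP5 fell: it read 9.95, 10.16, 10.01 and 9.96 in untreated cells and 9.37, 9.39, 9.78 and 9.38 in treated cells, a difference of -0.54 ± 0.095 (limma adjusted p = 0.000526). Among 27 genes with a sequence that are in the broad or the liver target list, 5 held a motif: SP5, CYP27A1, CYP2E1, LECT2 and MMP7. That is 18.5%, against 7.24% of all genes with a sequence, and the difference was not tested. A match of letters is a description of the window and not evidence of a binding site. RefSeq promoter sequences were found for 9 of the 15 called genes.

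Of 5 brakes on the pathway inside the cell or at its membrane, 3 rose and 1 fell. Of all genes 19.2% rose and 14.8% fell, and a set this small gives no share to compare. RNF43, a ubiquitin ligase that removes Frizzled receptors from the cell surface, read 9.18, 9.31, 9.54 and 9.51 in untreated cells. It read 10.24, 10.14, 10.41 and 10.28 in treated cells. All treated arrays exceeded all untreated ones, and RNF43 rose by 0.88 ± 0.091 or 1.84-fold, the largest rise of the 47 genes (limma adjusted p = 4.54e-06). ZNRF3, the paralog with the same action on Frizzled, read 9.74, 9.80, 9.96 and 9.81 against 9.96, 9.91, 9.94 and 9.95. Its groups overlapped, and it was not called, at 0.11 with a 95% confidence interval from -0.03 to 0.25.

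The axin scaffolds went opposite ways. AXIN2, the copy induced by beta-catenin and a standard readout of its activity, read 8.70, 8.66, 9.08 and 9.14 without treatment. It read 9.48, 9.47, 9.55 and 9.63 with treatment, a rise of 0.64 ± 0.11 or 1.55-fold (limma adjusted p = 0.000304). Untreated replicates 1 and 2 were lower than 3 and 4, and all 4 were below the treated arrays. AXIN1, the constitutive scaffold of the destruction complex, read 8.62, 8.71, 8.80 and 8.64 against 8.13, 8.15, 8.17 and 8.06. Its groups were separate, and it fell by 0.57 ± 0.067 or 1.48-fold (limma adjusted p = 1.58e-05).

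NKD1, a feedback inhibitor that binds Dishevelled, read 10.65, 10.65, 10.89 and 10.75 against 10.94, 10.96, 10.97 and 10.98. The treated arrays lay within a narrow band just above the highest untreated one, and NKD1 rose by 0.23 ± 0.070 or 1.17-fold (limma adjusted p = 0.0217). The call was lost without untreated replicate 1 or 2, at 0.20 in both cases, and without H2O2 replicate 4, at 0.22.

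CTNNB1, which encodes beta-catenin itself, read 11.85, 11.82, 11.82 and 11.64 in untreated cells and 11.89, 11.98, 11.85 and 11.91 in treated cells. The groups did not overlap, by a narrow margin, and the difference of 0.13 was not called (95% confidence interval from -0.02 to 0.28, limma adjusted p = 0.188). The array reads transcript, and protein level and location were not measured.

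Of the 3 measured TCF/LEF factors, the DNA-binding partners of beta-catenin, 1 rose and 1 fell. LEF1, usually an activator and itself a beta-catenin target, read 5.62, 5.78, 5.70 and 5.72 against 6.08, 6.06, 6.07 and 5.89. All treated arrays were higher, by 0.32 ± 0.070 or 1.25-fold (limma adjusted p = 0.00252), although both means lay below the overall median. TCF7L2, the main TCF of liver and gut, read 9.57, 9.45, 9.75 and 9.75 against 9.37, 9.27, 9.36 and 9.43. It fell by 0.27 ± 0.080 or 1.21-fold (limma adjusted p = 0.0163), with the lowest untreated array just above the highest treated one. Without untreated replicate 4 the difference was -0.23 and the call was lost. TCF7L1, mostly a repressor, gave -0.050, with a 95% confidence interval from -0.24 to 0.15, and its sign changed with the array left out.

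TBX3, a T-box transcription factor that beta-catenin induces in liver tumours, read 9.47, 9.49, 9.77 and 9.67 in untreated cells. It read 10.19, 10.13, 10.24 and 10.29 in treated cells, without overlap, a rise of 0.61 ± 0.080 or 1.53-fold (limma adjusted p = 3.84e-05). As in AXIN2 and RNF43, untreated replicates 1 and 2 gave lower values than 3 and 4. This order was not particular to genes that rose: TCF7L2, which fell, and the uncalled LGR5 and FZD5 had it too. DKK4 had the opposite order.

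**Figure D3:**
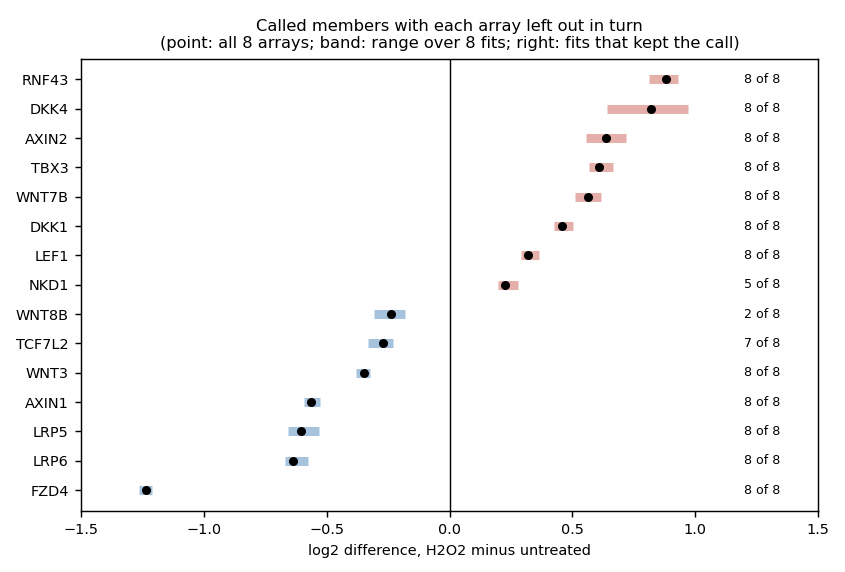
Log2 difference, H2O2 minus untreated, of the 15 called Wnt pathway genes: points use all 8 arrays, bands span the 8 fits that each leave out 1 array, and the counts on the right give how many of those fits kept the call. All bands stay on one side of 0, and NKD1, WNT8B and TCF7L2 lost the call in at least 1 fit.

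The rest of the pathway was read from 6 lists of genes outside the 48, which together held 132 measured genes. Of these 33 rose and 17 fell, a share of 37.9% called against 34% of all genes, and the median difference was -0.024. The genes named below from each list are its largest called rises and falls, not typical members, unless said otherwise. Genes for Wnt secretion, secreted modulators and R-spondins rose in 5 of 24 cases and fell in 1 (25% called, median -0.052). KREMEN1, a receptor for DKK proteins, rose by 0.58 ± 0.076, and SFRP4, a secreted Frizzled-related protein, by 0.41 ± 0.089. FRZB, of the same decoy family, fell by 0.66 ± 0.13.

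For the destruction complex and cytoplasmic transduction, 6 of 24 genes rose and 4 fell (median -0.010). That is 41.7% called against 34% of all genes. CAPRIN2, an RNA-binding protein that also acts at LRP5 and LRP6, rose by 1.02 ± 0.098, and the casein kinase CSNK1G1 by 0.60 ± 0.091. The scaffold AMER1 fell by 0.32 ± 0.074, and TNKS, which marks axin for degradation, by 0.30 ± 0.086. Nuclear cofactors and TCF repressors rose in 6 of 21 cases and fell in 2 (38.1% called, median -0.014). BCL9L, a coactivator that binds beta-catenin, rose by 0.80 ± 0.077 and the co-repressor TLE4 by 0.46 ± 0.081. The co-repressor TLE3 fell by 0.37 ± 0.077, and TBL1X, a subunit of co-repressor complexes, by 0.43 ± 0.081.

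Genes of planar polarity and alternative Wnt receptors rose in 3 of 18 cases and fell in 1 (median -0.078). That is 22.2% called against 34% of all genes. The formin DAAM1, which links Dishevelled to actin, rose by 0.43 ± 0.075, and MCC by 0.25 ± 0.074. The receptor kinase ROR1 fell by 0.26 ± 0.075. MCC lost its call without untreated replicate 1, at 0.23, or untreated replicate 4, at 0.23, and ROR1 without untreated replicate 2, at -0.21, or H2O2 replicate 4, at -0.24.

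Target genes of beta-catenin outside the 48 went both ways. In the list of broad targets 12 of 28 rose and 5 fell, with a median of 0.14. That is 60.7% called against 34% of all genes, but the list holds textbook targets chosen with earlier results known, and no test set it against other genes. JUN, an AP-1 subunit, rose by 1.40 ± 0.090, and NRCAM, a cell adhesion molecule, by 1.04 ± 0.085. VEGFA, the angiogenic factor, fell by 1.03 ± 0.067, and BIRC5, the mitotic protein survivin, by 0.87 ± 0.098. In the same arrays 14 of 15 proliferation genes fell. The part of that shift in the list was not tested. CCND1 and MYC, textbook targets chosen here after their values were seen, moved apart. CCND1, the G1 cyclin D1, rose by 0.91 ± 0.082, from 10.39 ± 0.14 to 11.31 ± 0.093 (SD, n = 4 arrays each). MYC, the growth-promoting transcription factor, fell by 0.53 ± 0.065, from 9.94 ± 0.079 to 9.41 ± 0.035 (SD, n = 4 arrays each).

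In the list of liver targets 4 of 21 rose and 5 fell, or 42.9% called against 34% of all genes, with a median of -0.032. AHR, the aryl hydrocarbon receptor, rose by 1.10 ± 0.081. The glutamate transporter SLC1A2 fell by 0.90 ± 0.12 and the dicarboxylate transporter SLC13A3 by 0.61 ± 0.095. NOTUM, a secreted enzyme that inactivates Wnt proteins by removing their lipid, is in this list, in that of broad targets and in that of secreted modulators. It read 10.94, 10.97, 11.30 and 11.14 against 11.59, 11.51, 11.45 and 11.37, a rise of 0.39 ± 0.087 without overlap (limma adjusted p = 0.00273). GLUL, the glutamine synthetase used as a marker of beta-catenin activity in liver, read 10.55, 10.59, 10.63 and 10.44 against 10.41, 10.45, 10.24 and 10.37. Its groups overlapped by a single treated array, and it was not called (-0.18 ± 0.071, limma adjusted p = 0.0624). It passed in 4 of 6 other settings but in only 1 of 8 fits without an array. TNFRSF19, a receptor of the TNF family in both target lists, rose by 0.39 ± 0.092. GLUL, TNFRSF19 and SP5 were also chosen after their values were seen.

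**Figure D4:**
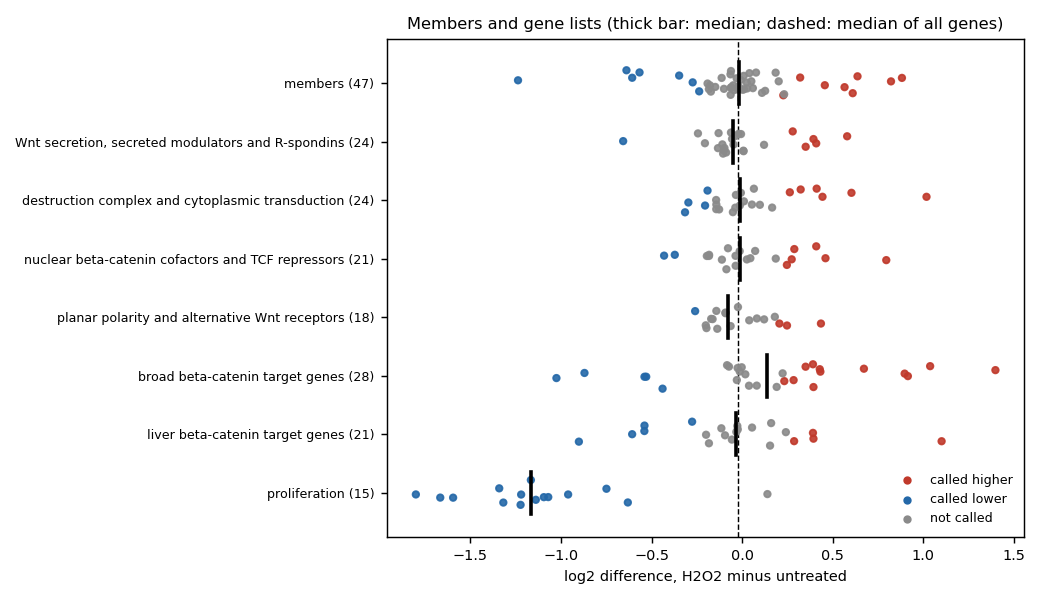
Log2 difference, H2O2 minus untreated, of the Wnt pathway genes (top row), of the 6 lists of other pathway genes and of 15 proliferation genes; each point is a gene, the thick bar the median of its row and the dashed line the median of all genes at -0.022. The medians of the pathway rows lie between -0.078 and 0.14, and that of the proliferation genes at -1.17.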

How the data were processed

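The authors deposited log2 expression values for 32321 probe sets and 8 HepG2 arrays. Per the labels' protocols, column-purified RNA was converted through cRNA to sense cDNA carrying biotin. Background correction, probe summary, normalization and genome build are not given in the sources used here. Only limma appears in the submitters' processing notes, without a role or version. No detection call was used, so a value is not known to be above background. The annotation gave 19158 probe sets with 1 symbol, 1388 with several and 11775 with none. Where a gene had several probe sets (637 cases), the one with the highest mean was taken, which gave 18404 genes. All 47 symbols analysed matched the RefSeq gene table of GRCh38.p14.

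Differences were fitted with limma (version 3.58.1, R 4.3.3) as 1 mean per group over all genes, with empirical Bayes moderation and Benjamini-Hochberg adjustment. The fit was tested on simulated data. Every adjusted p comes from it unless another setting is named. Counting and figures used Python 3.11.15 with pandas 2.3.3 and matplotlib 3.10.9. Marker levels were summed on the linear scale and then converted to log2. The alternatives were the replicate number as a block, median centring, quantile normalization, a filter on dim genes, a trended and robust prior, averaging of probe sets, stricter thresholds and each array left out in turn.

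The named genes are every called member, CTNNB1 and LGR5 as members that define a role, and the largest called changes of each list, up to 2 rises and 2 falls. CDKN1A, MKI67 and LMNB1 served as checks. Other uncalled members were named after their values were seen. The members, the lists and the rule were chosen with earlier results of these data known.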

Additional observations from a re-analysis of the deposited data

Results flagged for a closer look

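A sample was singled out when the gap to its nearest neighbour made up a larger part of the range of its group of 4 than the 95% critical value of Dixon's test. Chance gives this in about 1 of 20 groups, or about 7.7 of the 154 groups examined, and 7 were found. Of these, 4 were the highest value of H2O2 replicate 3: FZD9 at 8.82 (next 8.39), WNT9A at 7.97 (next 7.76), DKK3 at 7.85 (next 7.60) and SP5 at 9.78 (next 9.39). CTNNB1 was lowest in untreated replicate 4, at 11.64 (next 11.82), and without that array its difference was 0.080. LEF1 was lowest in H2O2 replicate 4, at 5.89 (next 6.06). FZD8 was lowest in untreated replicate 3, at 7.63 (next 7.81).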

How the results depend on the processing

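Of the 15 called Wnt pathway genes, 12 were called in every refit that tested them, with another processing or an array left out, and 0 changed sign. TCF7L2 and NKD1 lost the call with an array left out. A threshold of 0.01 on the adjusted p left 7 higher and 5 lower, without TCF7L2, NKD1 and WNT8B. WNT8B also lost it with the replicate block (adjusted p = 0.0789), median centring, quantile normalization and the trended prior. The counts of higher and lower genes, 8 and 7, were 7 to 9 and 6 to 10 with each array left out, the 10 without H2O2 replicate 3. They fell to 5 and 4 when a difference of at least 0.5 was required, which LEF1, DKK1 and WNT3 also did not reach. In both groups 10 of the 47 genes lay below the overall median, where no level is shown to exceed background. The filter on dim genes kept 35 of the 47 and removed, of the called genes, LEF1, DKK4 and WNT8B, and 5 uncalled genes passed in at least 1 setting. Among the 32 uncalled genes 15 changed sign in some setting, none of them differing by more than 0.076 in the main fit of all 8 arrays. With an array left out the differences could be larger, down to -0.19 for WNT2. WNT5A was at 0.020 under quantile normalization and from -0.062 to 0.022 with an array left out. Such fits gave -0.066 to 0.017 for WNT3A, -0.13 to 0.010 for TCF7L1 and -0.15 to 0.034 for SFRP1. Over all genes 6259 were called, and 5404 to 6755 with an array left out. Deviations of same-numbered arrays correlated between -0.25 and 0.094 across genes, so no pairing by replicate number was seen over all genes. That value does not settle it for single genes. Of the proliferation genes, CDK1, NUF2, CCNB1, TTK and CCNA2 kept the same order of replicates in both groups. The others, MKI67 among them, did not. Pairing within a subset of genes was not tested. With the number as a block 5758 genes were called, with 8 and 6 among the Wnt pathway genes. The limma adjusted p of DKK4 was then 0.000123, against 0.00383 without the block. For the other called Wnt pathway genes it was larger with the block.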
